A study of Mus musculus with 3 samples.

Results

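The genes described here encode the positive arm of Wnt signalling: the Wnt ligands, their Frizzled receptors and co-receptors, the R-spondins that strengthen the signal, and genes that relay it or respond to it. They were taken by gene name, under a rule chosen with earlier results of these data known. The rule took every probe set whose single gene symbol was a numbered Wnt, Fzd or Rspo gene or was on a list. The list held receptors, secretion genes, relay factors and targets. This gave 116 probe sets for 55 genes, of 34945 probe sets for 18193 genes with a single symbol. Tcf7 is on the list but is not analysed here.

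The study sorted cells from C57BL/6 mice, described as endosteal, meaning from the inner surface of bone. Collagenase freed the cells from pieces of leg bone (femur and tibia), cells carrying CD45, CD31 or Ter119 (marks of blood, endothelial and erythroid cells) were removed, and the rest were sorted by PDGFRa, a growth factor receptor of mesenchymal cells, and Sca-1, a progenitor surface protein. The 3 fractions were PDGFRa(-) Sca-1(-) cells, called double-negative here, PDGFRa(+) Sca-1(-) cells, called PDGFRa-only, and PDGFRa(+) Sca-1(+) cells, called double-positive. All 3 fractions came from the same strain, with no genotype or treatment named. The sources used here do not give the age of the mice or how many were pooled. RNA of each fraction was amplified in a two-cycle assay and put on 1 Affymetrix array, so none of the differences has a replicate, an SD over animals or a test.

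Wnt proteins are lipid-modified secreted signals. When a Wnt binds a Frizzled receptor together with Lrp5 or Lrp6, breakdown of β-catenin stops and β-catenin acts with the TCF and LEF factors to switch on target genes, several of which damp the signal again. In bone, this branch favours osteoblast formation, whereas Wnt5a and its relatives mostly act through Ror receptors without β-catenin, and Wnt ligands also pattern growing cartilage.

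Values are probe set signals on a linear scale, with each gene read from its brightest probe set. A signal counted as above background when it reached a floor of 93.2, the mean of the 3 array medians. Higher or lower means a ratio of at least 2-fold. Where a signal lay under the floor on 1 of the arrays compared, the ratio to the floor is a bound, written "at least". Ratios are taken for the same gene between arrays, never between genes, because probe sets differ in how brightly they bind. Summed marker signals add genes of unlike brightness, so the brightest probe sets weigh most in them. In such bulk samples, fewer cells of a type and less RNA per cell cannot be told apart.

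The gate and the label were read first. Pdgfra gave 586, 2420.4 and 12846 in double-negative, PDGFRa-only and double-positive cells, so the PDGFRa(-) fraction had the lowest level but was not at background. Ptprc (CD45) and Pecam1 (CD31) were under the floor on all arrays, and so were the other markers of the 4-gene blood list. The 5 neutrophil precursor markers, also blood-cell genes, were not all under it: they summed to 461, 2560.0 and 2231, with 2, 5 and 5 of them above the floor and Mpo at 44.9, 712 and 655. Ly6a, which encodes Sca-1, is not analysed here. All 5 osteoblast markers measured of 8 listed were above the floor on each array, with summed signals of 41690.2, 95532 and 16448 in the same order. In double-positive cells most of that sum was Col1a1 (14417). Alpl, Ibsp and Pth1r were at 356, 728 and 840.5 there, and Sp7 at 106 was just above the floor. In PDGFRa-only cells Alpl, Ibsp, Pth1r and Sp7 gave 15795, 31665, 21462 and 1479. The 8 chondrocyte markers summed to 116281, 150915 and 13761, so cartilage transcripts were measured in what the label calls endosteal cells. Of the 4 osteocyte markers, Sost and Mepe were under the floor throughout, while Dmp1 (426, 12890 and 39.1) and Phex (913, 12019.8 and 2353) were highest in PDGFRa-only cells. The 6 fibroblast markers measured summed to 926, 3154 and 67503. The ratio of 3′ to 5′ control signals for Actb was 2.99, 2.63 and 4.65 and for Gapdh 3.93, 3.54 and 4.73, so the double-positive array leaned more to transcript ends, and its part in the results was not tested.

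Most members were measurable in these cells. Of the 55 genes, 46 lay above the floor on at least 1 array (83.6%, against 67.1% of all 18193 genes), 40 in double-negative, 39 in PDGFRa-only and 37 in double-positive cells. The other 9, Wnt2b, Wnt3, Wnt3a, Wnt8a, Wnt9b, Wnt16, Lrp5, Lgr5 and Rnf43, stayed under it on all arrays. Of the 46, 21 differed by 2-fold or more in at least 1 comparison. Another 16 were measured on all arrays and stayed within 2-fold, with highest to lowest ratios from 1.12 for Lgr4 to 1.93 for Ror2. The last 9 were near the floor, with no comparison that reached 2-fold.

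Among the ligands, different Wnt genes were high in different fractions. Wnt4 and Wnt5b had their lowest signals in double-positive cells, where Wnt2, Wnt5a and Wnt9a had their highest. Of 19 Wnt genes, 13 were above the floor somewhere and 9 on each array. Only Wnt5a, Wnt5b, Wnt7b, Wnt9a and Wnt11 were above it on all 3. Along the same split, the summed osteoblast and chondrocyte markers were lowest in double-positive cells. The summed fibroblast markers were highest there, as was the sum of the 5 reticular stroma markers, at 1193, 2784 and 27719.5. Not every marker followed its sum. Col1a1 of the osteoblast list was lowest in double-negative cells, at 7476, 25131 and 14417. Adipoq of the reticular list was under the floor in double-positive cells, at 79.5, 294.5 and 58.4, where Cxcl12 gave most of the sum (21288). The part of these markers in the ligand signals was not tested.

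Wnt4, a ligand known from kidney, gonad and cartilage development, gave 2350.5 in double-negative and 2222 in PDGFRa-only cells but 62.4, under the floor, in double-positive cells. The Sca-1(-) fractions were therefore alike and high, and the Sca-1(+) fraction had no measurable level. The difference was at least 23.8-fold against PDGFRa-only and at least 25.2-fold against double-negative cells, and the other Wnt4 probe set gave bounds in the same direction (log2 ratios of −2.15 and −2.90).

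Wnt5b, a ligand of the growth plate that acts on chondrocyte maturation, gave 826 in double-negative, 2609.5 in PDGFRa-only and 124 in double-positive cells. It was high in PDGFRa-only cells, intermediate in double-negative cells and just above the floor in double-positive cells. The level in PDGFRa-only cells was 21.1-fold above that in double-positive and 3.16-fold above that in double-negative cells. Its brightest probe set carries a suffix (_x_at) that marks possible cross-binding, but the other, at 482, 1143 and 51.4, kept the same order. The 8 chondrocyte markers had the same order in sum (116281, 150915 and 13761). Between the Sca-1(-) fractions, Col10a1, Matn1 and Ihh were at least 2-fold higher in PDGFRa-only cells, by 4.64-fold to 8.03-fold, and the other 5 were within 1.04-fold. Their part in the Wnt5b signal was not tested.

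Wnt9a, a ligand known for its place in forming joints, gave 196 in double-negative, 145 in PDGFRa-only and 1372 in double-positive cells. The first pair lay near the floor and the double-positive signal stood apart, 9.44-fold above PDGFRa-only and 7.02-fold above double-negative cells. A second Wnt9a probe set was under the floor on all arrays. Wnt2, a β-catenin-dependent ligand, was measurable in double-positive cells alone, at 464 against 7.20 and 22.2, which is at least 4.98-fold.

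Wnt5a, the best known ligand of the Ror branch, gave 145 in double-negative, 256 in PDGFRa-only and 626 in double-positive cells. The ratio of double-positive to PDGFRa-only cells was 2.44, but a second probe set, at 201 and 196, gave a log2 ratio of −0.04. Against double-negative cells both of these probe sets were past 2-fold, with log2 ratios of 2.11 and 1.05. The second read 94.4 in double-negative cells, just above the floor. The remaining Wnt5a probe sets were under the floor on all arrays. The pair of close relatives thus ran in opposite directions by their brightest probe sets, with Wnt5b 21.1-fold lower and Wnt5a 2.44-fold higher in double-positive than in PDGFRa-only cells.

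Wnt7b, reported to favour osteoblast formation, gave 428, 306 and 165 in the same order, 2.60-fold lower in double-positive than in double-negative cells. The other Wnt7b probe set was under the floor on all arrays. Wnt11, which acts mainly without β-catenin, was measured on every array, at 1858, 1433 and 1329, and stayed within 2-fold. Wnt1, Wnt6, Wnt7a, Wnt8b, Wnt10a and Wnt10b lay near the floor, with highest signals from 102 for Wnt10a to 173 for Wnt6.

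**Figure D1:**
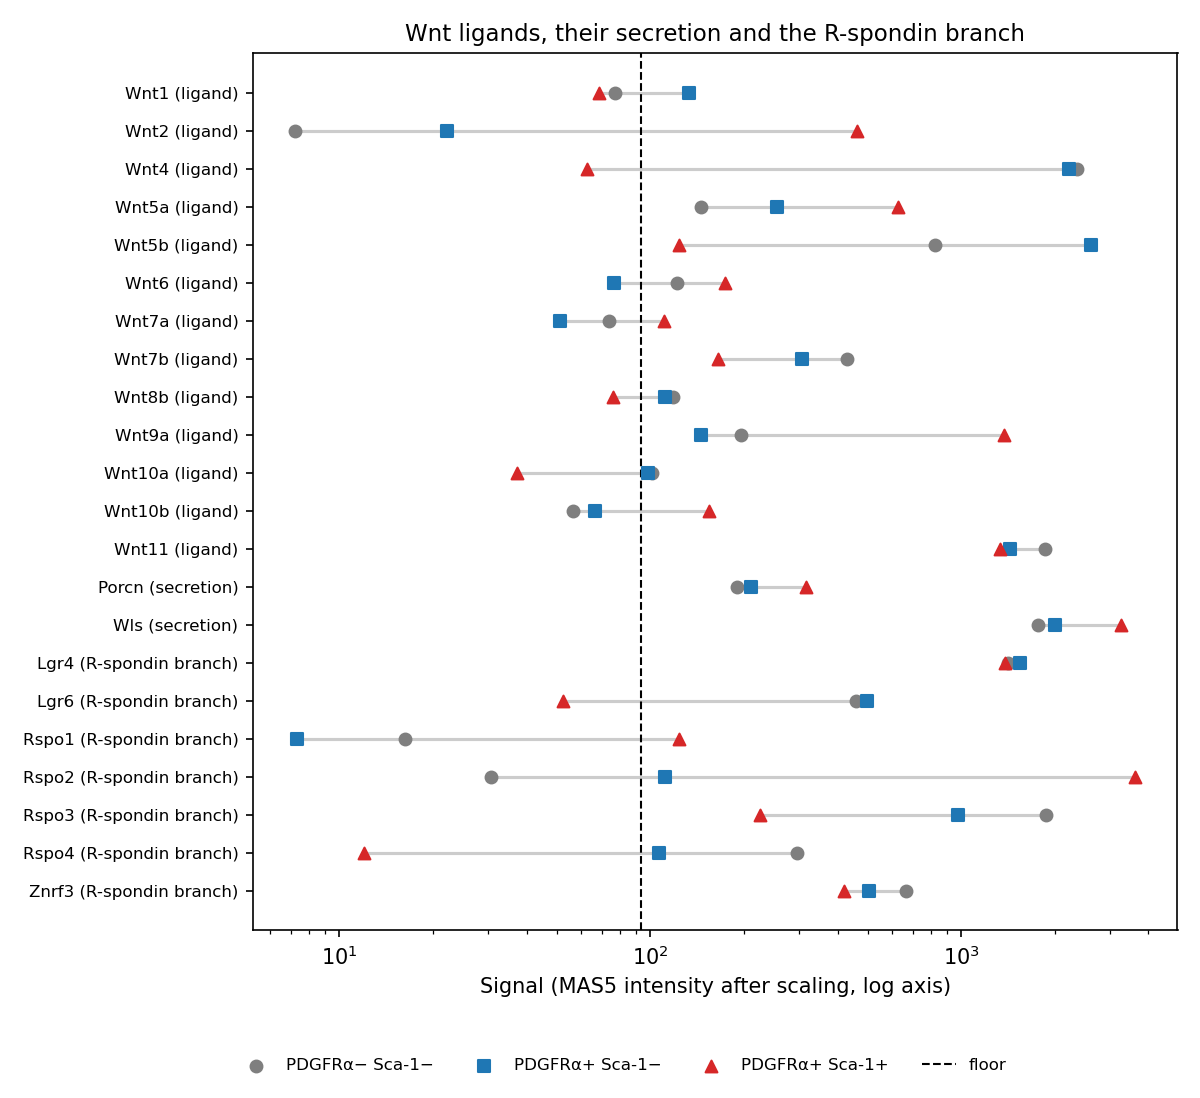
Signal on each array (log axis, MAS5 intensity after scaling) for the Wnt ligands, the ligand secretion genes and the R-spondin branch; grey circles are PDGFRa(-) Sca-1(-), blue squares PDGFRa(+) Sca-1(-) and red triangles PDGFRa(+) Sca-1(+) cells, 1 array each, and the dashed line is the floor of 93.2. Wnt4, Wnt5b, Lgr6, Rspo3 and Rspo4 have their lowest point in PDGFRa(+) Sca-1(+) cells, and Wnt2, Wnt5a, Wnt9a and Rspo2 their highest.

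Start-site sequences are shown for Wnt4 and Wnt9a, whose levels ran in opposite directions, for Wnt11, which stayed within 2-fold, and for Tcf7l2, described further on. Each is 300 bases from RefSeq (GRCm38.p6), 250 before and 50 after the start, read 5′ to 3′ on the gene's own (+) strand. Capitals mark GC boxes (GGGCGG, either strand) and the TCF/LEF motif (CTTTGAT or CTTTGAA, either strand). The windows lie at chr4:137277385-137277684 for Wnt4, chr11:59306680-59306979 for Wnt9a, chr7:98834862-98835161 for Wnt11 and chr19:55741560-55741859 for Tcf7l2, taking the most upstream start listed.
Wnt4: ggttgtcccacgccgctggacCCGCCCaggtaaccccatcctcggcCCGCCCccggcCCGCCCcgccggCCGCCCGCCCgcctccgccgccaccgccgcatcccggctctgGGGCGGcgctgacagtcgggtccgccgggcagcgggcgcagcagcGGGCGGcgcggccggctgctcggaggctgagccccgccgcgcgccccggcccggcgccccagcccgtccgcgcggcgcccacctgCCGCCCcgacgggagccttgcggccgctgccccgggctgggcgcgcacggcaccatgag
Wnt9a: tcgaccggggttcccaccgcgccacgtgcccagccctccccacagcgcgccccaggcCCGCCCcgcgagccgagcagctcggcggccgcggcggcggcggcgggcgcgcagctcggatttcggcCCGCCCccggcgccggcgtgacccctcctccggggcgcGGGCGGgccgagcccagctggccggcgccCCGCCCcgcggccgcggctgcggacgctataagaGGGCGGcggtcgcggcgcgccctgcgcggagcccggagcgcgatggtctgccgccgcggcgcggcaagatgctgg
Wnt11: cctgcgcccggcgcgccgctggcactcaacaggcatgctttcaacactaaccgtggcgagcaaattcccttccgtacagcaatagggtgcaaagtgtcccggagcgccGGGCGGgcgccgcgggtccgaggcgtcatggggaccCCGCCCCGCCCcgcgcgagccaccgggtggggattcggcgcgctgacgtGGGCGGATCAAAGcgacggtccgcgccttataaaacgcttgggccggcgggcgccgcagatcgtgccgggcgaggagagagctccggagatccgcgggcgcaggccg
Tcf7l2: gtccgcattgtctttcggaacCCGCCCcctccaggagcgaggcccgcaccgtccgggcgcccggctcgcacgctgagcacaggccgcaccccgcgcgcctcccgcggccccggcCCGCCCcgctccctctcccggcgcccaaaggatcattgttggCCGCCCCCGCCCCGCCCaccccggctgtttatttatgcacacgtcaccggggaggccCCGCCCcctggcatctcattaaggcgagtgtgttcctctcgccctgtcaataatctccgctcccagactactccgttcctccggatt

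These windows were rich in G and C, at 84.3% for Wnt4, 83.3% for Wnt9a, 71.3% for Wnt11 and 70.0% for Tcf7l2. Counting overlapping matches, they held 8, 5, 4 and 6 GC boxes in that order, so a GC-rich start was shared by ligands that ran in opposite directions. The TCF/LEF motif was present in the Wnt11 window, where it directly follows a GC box, and these letters were in none of the other windows shown. Start windows on a single chromosome were left out of the counts that follow, for members and for all genes alike. The windows used covered 37 of the 55 members, 46 windows in all. Their median G and C content was 67.7%, against 52.7% over all 32851 windows used. A GC box was present in 71.7% of member windows and in 35.7% of all windows. The TCF/LEF motif was in 4.35% of member windows, those of Wnt11 and Wnt5b, and in 8.65% of all windows. A match describes letters only and shows no binding.

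Some ligand genes lie side by side on the chromosome. In the RefSeq gene order 5 pairs of members are direct neighbours, and 4 of these are Wnt pairs: Wnt3a with Wnt9a, Wnt1 with Wnt10b, Wnt6 with Wnt10a and Wnt3 with Wnt9b. Wnt9a reached 1372 in double-positive cells while its neighbour Wnt3a was at 71.1, under the floor. Wnt10b was above the floor only in double-positive cells (154) and its neighbour Wnt1 only in PDGFRa-only cells (133).

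Both genes needed to secrete Wnt proteins were measured on all arrays and stayed within 2-fold. Wls, which carries Wnt proteins to the cell surface, gave 1760.4 in double-negative, 1999 in PDGFRa-only and 3273 in double-positive cells, and Porcn, which attaches their lipid, gave 189.9, 210.1 and 317. Each was highest in double-positive cells. The 3 Wls probe sets above the floor gave log2 ratios of 0.71, 0.93 and 1.09 for double-positive over PDGFRa-only cells, around the 2-fold line.

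Among the Frizzled receptors, all 10 were above the floor on at least 1 array and 8 on every array. Most were shared between the fractions, while Fzd4 and Fzd1 stood out in double-positive cells and Fzd9 in double-negative cells. Fzd4, a receptor for Wnt proteins and for Norrin, gave 215 in double-negative, 230.5 in PDGFRa-only and 1962.5 in double-positive cells. Double-positive cells stood apart, 8.51-fold above PDGFRa-only and 9.11-fold above double-negative cells. A second Fzd4 probe set gave log2 ratios of 1.94 and 3.02 for these comparisons, and of 1.07 between the Sca-1(-) fractions, where the brightest gave 0.10. The remaining probe set was under the floor throughout. Of the 5 endothelial markers, a cell type that also carries Fzd4, Pecam1, Cdh5 and Emcn were under the floor on all arrays, and the list summed to 131.5, 234 and 1109, the last mostly from Tek (888). Fzd1 followed the same order at 596, 609 and 1883, 3.09-fold and 3.16-fold higher in double-positive cells, with its other probe set under the floor.

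Fzd9, a receptor reported to be needed for bone formation, gave 852 in double-negative, 255 in PDGFRa-only and 107.5 in double-positive cells. The signal was lower by 3.34-fold from double-negative to PDGFRa-only cells and by another 2.38-fold in double-positive cells. The last value lay close to the floor. Fzd8 gave 454, 526 and 980.5 and was 2.16-fold higher in double-positive than in double-negative cells, with log2 ratios of 1.11 and 1.10 from its probe sets.

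The other Frizzled genes stayed within 2-fold or near the floor. Fzd7 gave 1738, 996 and 1516 and Fzd2 gave 826, 769 and 1173. For Fzd2, 1 of 3 probe sets differed from this, with a log2 ratio of 1.96 for double-positive over PDGFRa-only cells against 0.61 and 0.76. Fzd3 and Fzd10 were above the floor in double-negative cells alone, at 102 and 140.4.

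Of the 7 co-receptors and other receptors, 6 were above the floor on every array and Lrp5 on none, with a highest signal of 16.6. Lrp5 had a single probe set, so its reading has no second measurement here. Lrp6, which works beside Lrp5, gave 1063, 1126 and 1979.8 in double-negative, PDGFRa-only and double-positive cells, within 2-fold, and its other probe set ran the same way with a log2 ratio of 0.88 for double-positive over PDGFRa-only cells. Ryk gave 1727, 1953 and 1305, and the Dickkopf receptor Kremen1 gave 466, 586 and 628; each stayed within 2-fold.

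The Ror receptors, which take Wnt5a signals, were less even. Ror1 gave 431 in double-negative, 129 in PDGFRa-only and 716 in double-positive cells. It was thus lowest in PDGFRa-only cells, 3.34-fold below double-negative and 5.54-fold below double-positive cells, although its other 2 probe sets were under the floor throughout. Ror2 gave 865, 527 and 447, within 2-fold, and its other probe set was past 2-fold with a log2 ratio of −1.50 for double-positive over double-negative cells. Lrp4, which anchors the Wnt inhibitor sclerostin at bone cells, gave 113, 246 and 147, 2.18-fold higher in PDGFRa-only than in double-negative cells.

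**Figure D2:**
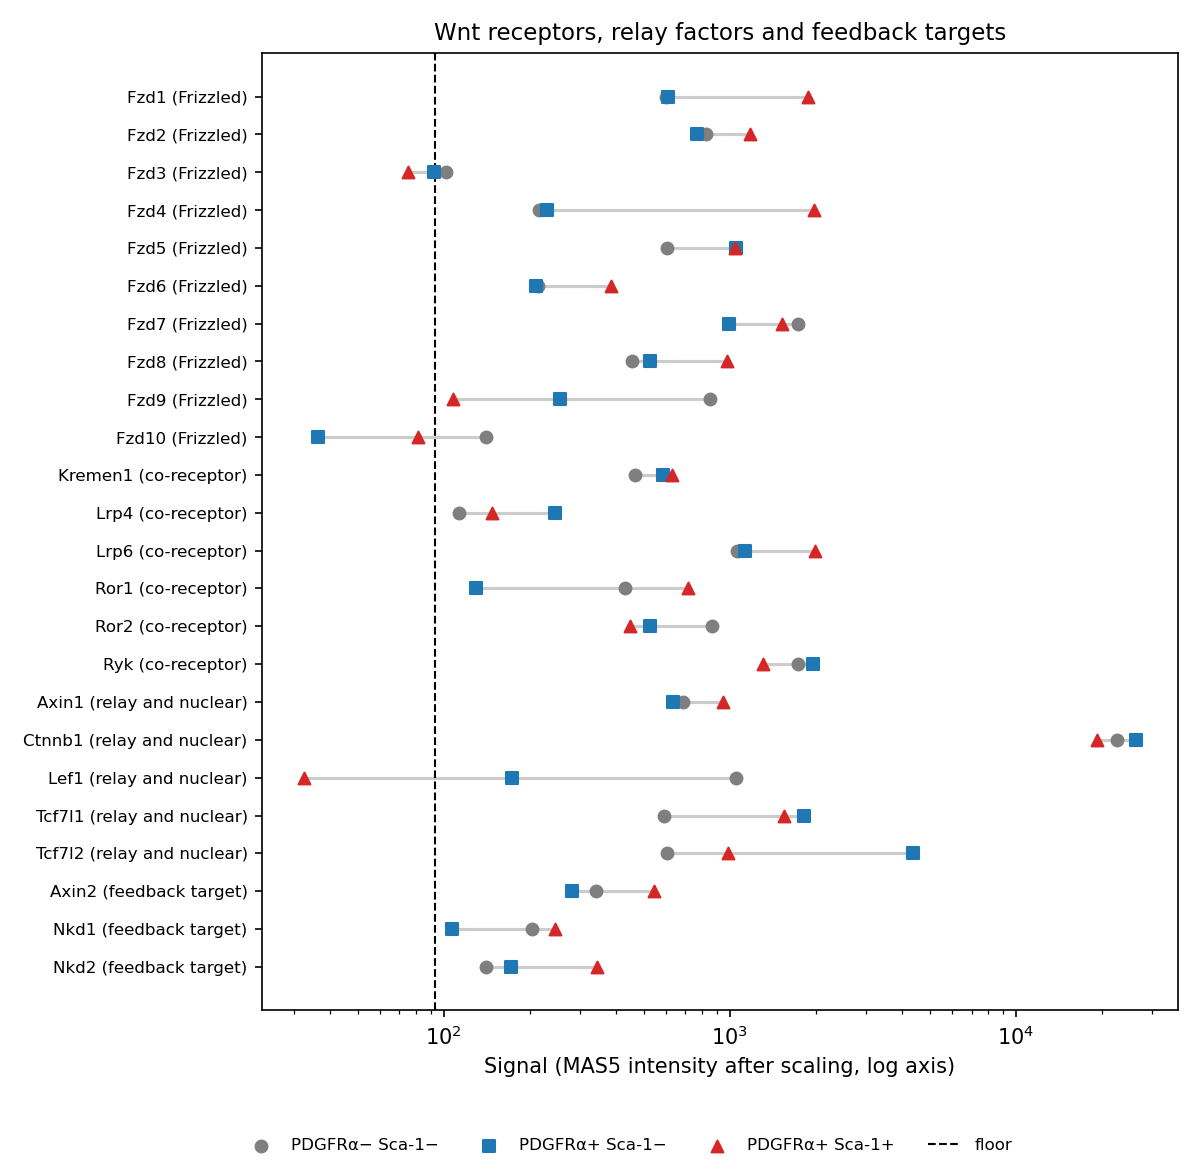
Signal on each array (log axis, MAS5 intensity after scaling) for the Frizzled genes, co-receptors, relay and nuclear factors and feedback targets; grey circles are PDGFRa(-) Sca-1(-), blue squares PDGFRa(+) Sca-1(-) and red triangles PDGFRa(+) Sca-1(+) cells, 1 array each, and the dashed line is the floor of 93.2. Fzd4 stands apart in PDGFRa(+) Sca-1(+) cells (1962.5), Tcf7l2 in PDGFRa(+) Sca-1(-) cells (4380) and Lef1 in PDGFRa(-) Sca-1(-) cells (1048).

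The R-spondins, secreted proteins that keep Frizzled receptors on the cell surface by occupying Lgr receptors and the ubiquitin ligases Znrf3 and Rnf43, were divided between the fractions. Rspo2 was high in double-positive cells, and Rspo3 and Rspo4 in double-negative cells. Rspo2 gave 30.8 in double-negative, 111 in PDGFRa-only and 3634.5 in double-positive cells. It was under the floor in double-negative and just above it in PDGFRa-only cells, and the ratio was 32.6-fold over PDGFRa-only and at least 39.0-fold over double-negative cells, the highest ratios among the members in the upward direction. The second Rspo2 probe set did not show this: it read 95.4, 152 and 65.6, with a log2 ratio of −0.71, a bound, for double-positive over PDGFRa-only cells.

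Rspo3, a bone-acting R-spondin, gave 1876 in double-negative, 978 in PDGFRa-only and 225 in double-positive cells. Its signal was stepwise lower along these fractions, 1.92-fold and then 4.35-fold, and 8.34-fold lower in double-positive than in double-negative cells. Its second probe set was under the floor on all arrays. Rspo4 had the same order, at 295.5, 106 and 12.0, which is 2.78-fold lower in PDGFRa-only and at least 3.17-fold lower in double-positive than in double-negative cells. Rspo1 was above the floor in double-positive cells alone, at 123.5.

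Of the R-spondin receptors, Lgr4 was even, at 1411, 1546 and 1384, while Lgr6 was not. Lgr6, a receptor also used as a stem cell marker in skin, gave 459 in double-negative, 497 in PDGFRa-only and 52.5 in double-positive cells. Double-positive cells were under the floor, at least 5.33-fold below PDGFRa-only and at least 4.93-fold below double-negative cells. Both Lgr6 probe sets showed this direction, with bounds of −2.41 and −2.34 on the log2 ratio against PDGFRa-only cells. They differed between the Sca-1(-) fractions, with log2 ratios of 0.11 and 1.09. Znrf3 gave 662, 504 and 419, within 2-fold, and Lgr5 and Rnf43 were under the floor throughout, at up to 67.9 and 4.90.

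The fractions also differed in the nuclear factors that receive the signal. Lef1 was highest in double-negative cells and Tcf7l2 in PDGFRa-only cells, while Tcf7l1 was higher in both PDGFRa(+) fractions than in double-negative cells. β-catenin itself, Ctnnb1, gave 22629, 26272 and 19272 in double-negative, PDGFRa-only and double-positive cells, within 2-fold. Signals of this size lie near the top of the arrays' range (42073.9). Its dimmer probe sets were at or just past 2-fold lower, down to a log2 ratio of −1.04, for double-positive over PDGFRa-only cells. Axin1, a scaffold of the complex that breaks β-catenin down, gave 686, 635 and 948.

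Tcf7l2, a TCF factor expressed in many tissues, gave 605 in double-negative, 4380 in PDGFRa-only and 983 in double-positive cells. PDGFRa-only cells stood apart, 7.23-fold above double-negative and 4.45-fold above double-positive cells. Of 4 probe sets, 3 showed this at log2 ratios of 2.10 (a bound), 2.85 and 3.20 over double-negative cells, and the dimmest gave 0.17. The 4 osteocyte markers summed to 1430, 25017 and 2437 in the same order, with Mepe and Sost under the floor and Dmp1 at 426, 12890 and 39.1. The osteoblast, chondrocyte and neutrophil precursor sums were also highest in PDGFRa-only cells. The part of all these markers in the Tcf7l2 signal was not tested.

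Tcf7l1, which mostly represses targets, gave 588, 1814 and 1549, so both PDGFRa(+) fractions were above double-negative cells, by 3.09-fold and 2.64-fold. Its second probe set showed the same at log2 ratios of 1.42 and 1.67. The summed neutrophil precursor, fibroblast and reticular stroma markers were also higher in both PDGFRa(+) fractions. So were the osteocyte and endothelial sums and Pdgfra. The part of all these genes in the Tcf7l1 signal was not tested. Lef1, an activating factor that is itself a common target of the pathway, gave 1048 in double-negative, 174 in PDGFRa-only and 32.5 in double-positive cells. It was 6.03-fold lower in PDGFRa-only and at least 11.2-fold lower in double-positive than in double-negative cells. The second Lef1 probe set was above the floor in double-negative cells alone, at 150.5, with a bound that did not reach 2-fold.

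Double-negative cells, in which Lef1 was highest, also had the highest signals for dividing cells: Mki67, Cdk1, Top2a and Mcm5 summed to 6554 there, 1011 in PDGFRa-only and 1104 in double-positive cells. The 4 erythroid markers measured summed to 7092, 2044.5 and 1215, of which Alas2 was under the floor on all arrays and most of the sum was Tfrc, also a gene of dividing cells. Their part in the Lef1, Fzd9, Rspo3 and Rspo4 signals was not tested.

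The feedback targets Axin2, Nkd1 and Nkd2, which damp the signal when β-catenin is active, were above the floor on every array and had their highest signals in double-positive cells. Axin2, the target read most often as a measure of the pathway, gave 340 in double-negative, 282 in PDGFRa-only and 542 in double-positive cells. It stayed within 2-fold, with a ratio of 1.92 between the PDGFRa(+) fractions. Its second probe set was under the floor.

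Nkd1 gave 204, 106.5 and 246 and was 2.31-fold higher in double-positive than in PDGFRa-only cells, where it lay just above the floor. Its other probe sets above the floor gave bounds of 0.93 and −0.26 on the log2 ratio. Nkd2 gave 140.5, 172 and 343, just under 2-fold above PDGFRa-only and 2.44-fold above double-negative cells, and 3 of its 4 probe sets passed 2-fold in the latter comparison. Lef1 and Znrf3 are known targets too and had their highest signals in double-negative cells, so the target genes did not share an order across the fractions.

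**Figure D3:**
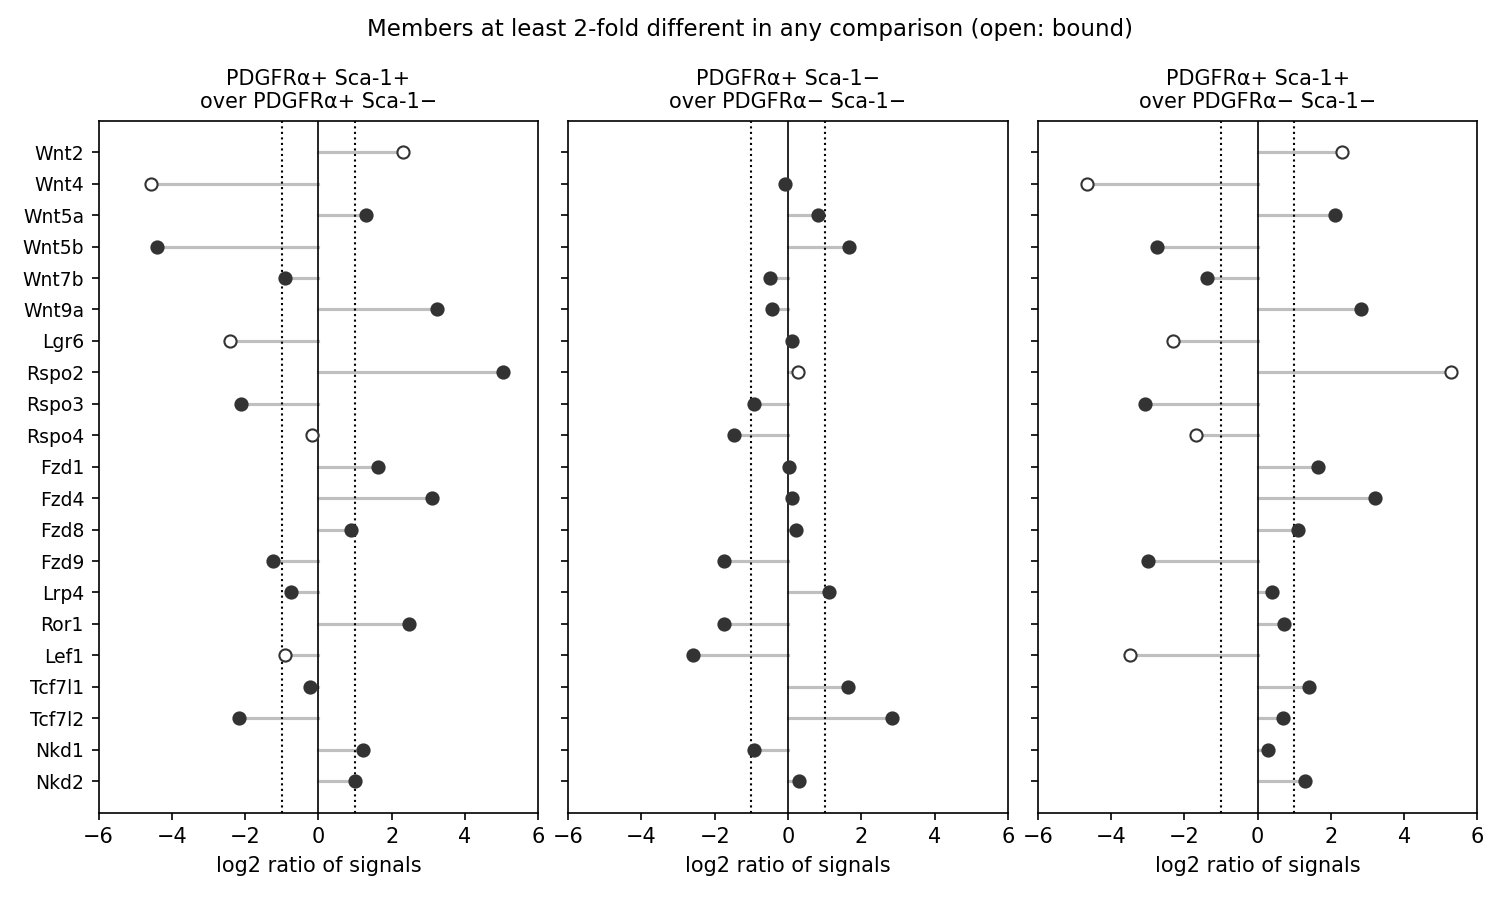
Log2 ratio of signals for the 21 members that differed by 2-fold or more in at least 1 comparison; each panel is a comparison of 2 arrays, dotted lines mark 2-fold, and open circles are bounds set by the floor. Rspo2, Wnt9a and Fzd4 lie far to the right and Wnt4 and Wnt5b far to the left where PDGFRa(+) Sca-1(+) cells are compared with PDGFRa(+) Sca-1(-) cells, while Tcf7l2 and Lef1 have the largest distances from 0 in the comparison of the Sca-1(-) fractions.

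The comparison of double-positive with PDGFRa-only cells asked what goes with Sca-1 among PDGFRa(+) cells. Pdgfra itself was 5.31-fold higher in double-positive cells, so these fractions differed in Pdgfra level as well as in Sca-1. Of 44 members compared, 8 were at least 2-fold higher in double-positive cells (Wnt2, Wnt5a, Wnt9a, Rspo2, Fzd1, Fzd4, Ror1 and Nkd1) and 6 lower (Wnt4, Wnt5b, Rspo3, Lgr6, Fzd9 and Tcf7l2). These are 18.2% and 13.6% of the members, against 14.9% and 11.3% of all 11855 genes compared, so the share of members was near that of genes in general. Their median log2 ratio was 0.17 against 0.07 for all genes. Fzd9, Lgr6, Nkd1 and Wnt2 were no longer past 2-fold with a higher floor, nor Fzd1, Nkd1, Ror1 and Wnt5a with the mean over probe sets, nor Nkd1, Rspo2, Tcf7l2 and Wnt5a with the dimmest probe set.

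The comparison of PDGFRa-only with double-negative cells asked what goes with PDGFRa among Sca-1(-) cells. Of 42 members, 4 were higher in PDGFRa-only cells (Wnt5b, Lrp4, Tcf7l1 and Tcf7l2) and 4 lower (Fzd9, Ror1, Rspo4 and Lef1), 9.52% each way. Among all 11675 genes compared the shares were 4.82% and 5.63%. With 4 genes each way, this gap is a matter of a few genes and was not tested. The median log2 ratio was −0.04 for members and −0.03 for all genes. Lrp4, Ror1 and Rspo4 were no longer past 2-fold with a higher floor, nor Ror1 with the mean over probe sets, nor Lef1 and Tcf7l2 with the dimmest probe set.

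The comparison of double-positive with double-negative cells set apart fractions that differ in both markers. Of 45 members, 9 were higher in double-positive cells (Wnt2, Wnt5a, Wnt9a, Rspo2, Fzd1, Fzd4, Fzd8, Tcf7l1 and Nkd2) and 8 lower (Wnt4, Wnt5b, Wnt7b, Rspo3, Rspo4, Lgr6, Fzd9 and Lef1). These are 20.0% and 17.8%, against 14.5% and 12.2% of 11843 genes. The median log2 ratio was 0.41 for members and 0.03 for all genes. With a higher floor, Lgr6, Nkd2, Rspo4, Wnt2 and Wnt7b were no longer past 2-fold, nor Fzd1, Wnt5a and Wnt7b with the mean over probe sets, nor Lef1 and Rspo2 with the dimmest probe set. The 3 comparisons share arrays and are not separate results.

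**Figure D4:**
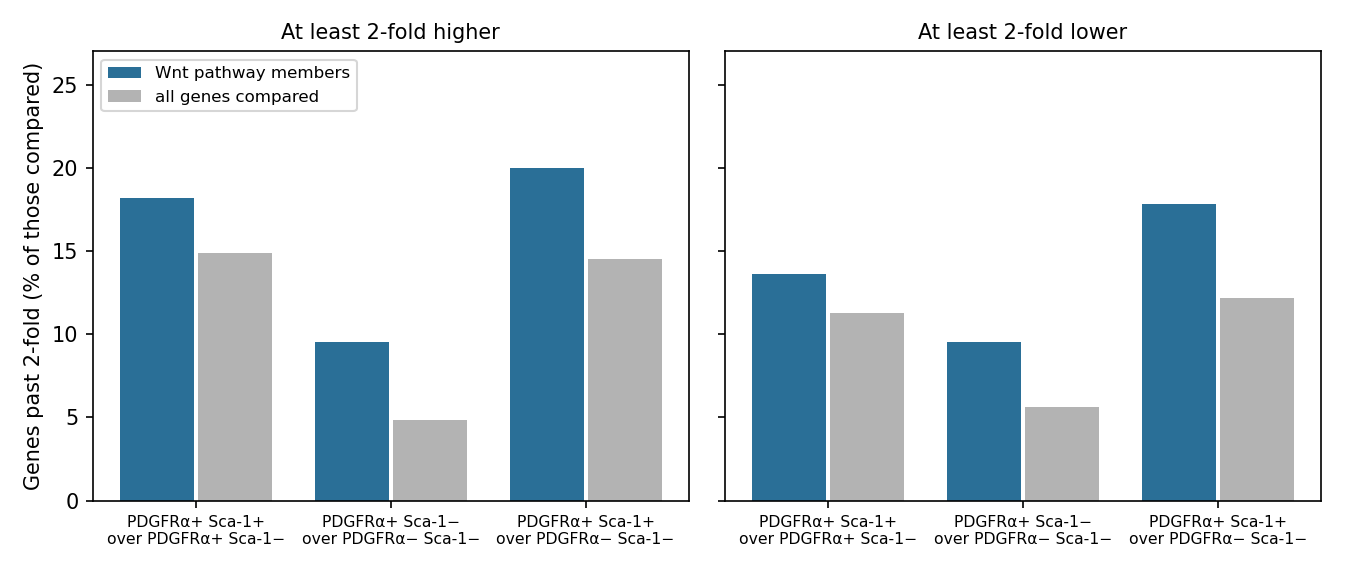
Share of genes at least 2-fold higher (left) or lower (right) in each comparison, in percent of the genes compared, for the Wnt pathway members (blue) and for all genes (grey). The member bars run from 9.52% to 20.0% and the bars of all genes from 4.82% to 14.9%.

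Read across all 3 arrays, 6 of 46 members (13.0%) were at least 2-fold above both other fractions in double-positive cells: Wnt2, Wnt5a, Wnt9a, Rspo2, Fzd1 and Fzd4. This pattern held for 10.6% of all 12211 genes above the floor. Another 5 (10.9%, against 6.96% of all genes) were lowest there: Wnt4, Wnt5b, Rspo3, Lgr6 and Fzd9. PDGFRa-only cells were highest for Wnt5b and Tcf7l2 (4.35%, against 2.46%) and lowest for Ror1 (2.17%, against 1.30%). Double-negative cells were highest for Fzd9, Lef1 and Rspo4 (6.52%, against 3.19%) and lowest for Tcf7l1 (2.17%, against 1.57%). No comparison reached 2-fold for 54.3% of members and 64.8% of all genes. Of these 25 members, 9 lay under the floor on some arrays, so their spread is known only as a bound. These shares rest on 1 to 6 genes for each pattern.

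The only repeated measurement was that by different probe sets of a gene, whose log2 ratios over all genes had an SD of 0.653 for double-positive over PDGFRa-only, 0.400 for PDGFRa-only over double-negative and 0.582 for double-positive over double-negative cells. That figure holds the scatter of probes and transcripts and says nothing of animals. Of members past 2-fold with several probe sets above the floor, all probe sets were past it for 4 of 8, 2 of 4 and 7 of 10 in these comparisons. Wnt4, Wnt5b, Lgr6 and Fzd4 passed with every such probe set between the PDGFRa(+) fractions, and Nkd1, Rspo2, Tcf7l2 and Wnt5a with some.

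**Figure D5:**
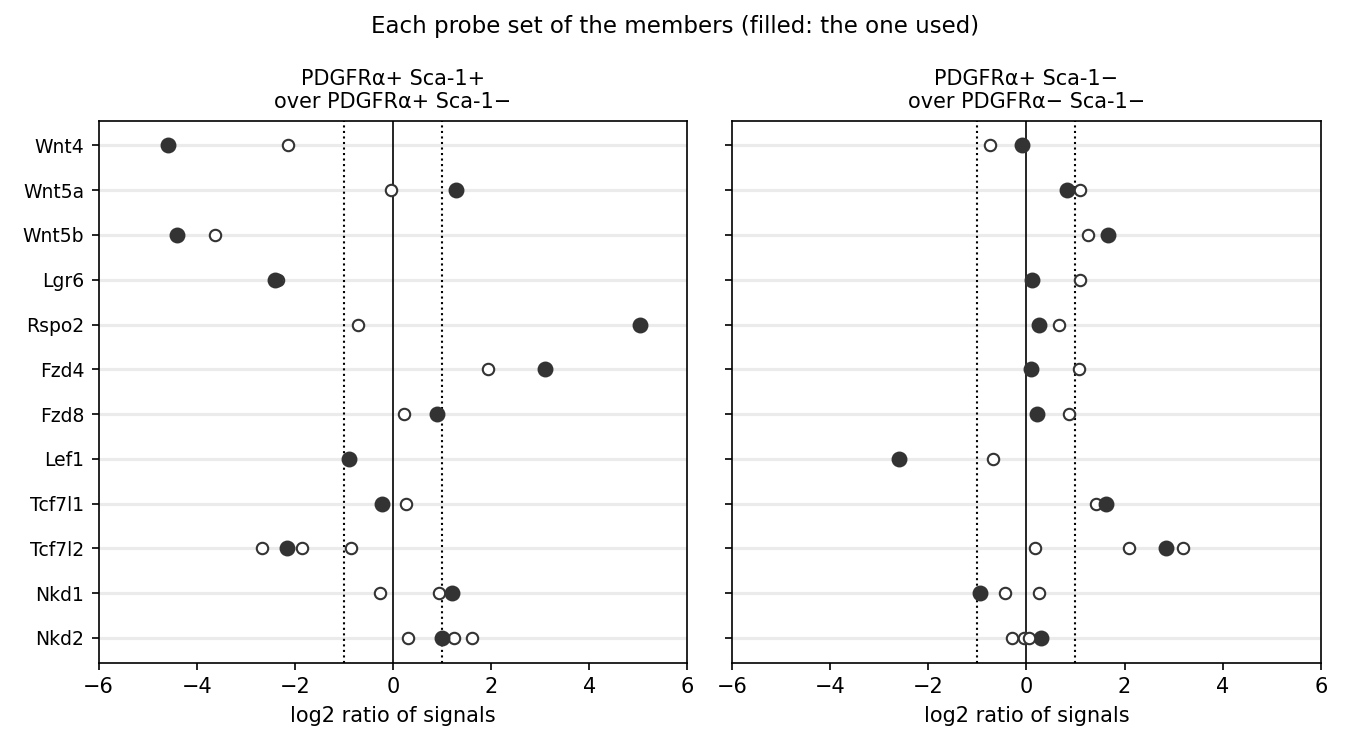
Log2 ratio of signals by each probe set above the floor, for members past 2-fold in any comparison that have more than 1 such probe set; filled circles are the probe sets used for the gene, open circles the others, dotted lines mark 2-fold, and values include bounds. The Rspo2 probe sets lie at 5.03 and −0.71 in the left panel, and those of Wnt5b at −4.40 and −3.62.

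Other genes of the pathway were read from lists that were also chosen with earlier results of these data known. Secreted antagonists, which bind Wnt proteins or their co-receptors, were read first. Of 11 compared, 5 were higher and 4 lower in double-positive than in PDGFRa-only cells (against 14.9% and 11.3% of all genes), with a median log2 ratio of 0.99 against 0.07 for all genes. Between the Sca-1(-) fractions 4 were higher and 3 lower in PDGFRa-only cells (against 4.82% and 5.63%). With so few genes, the difference from all genes was not tested. Notum, an enzyme that removes the lipid from Wnt proteins and is itself a pathway target, gave 1897 in double-negative, 224 in PDGFRa-only and 88.8 in double-positive cells, the same order as Lef1. Frzb gave 2604.5, 6993 and 90.4, the same order as Wnt5b. Sfrp4, which binds Wnt proteins, gave 726, 2259 and 26399, and Dkk2, an Lrp6 antagonist, gave 135, 237 and 6682.5, both highest in double-positive cells.

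Genes of the machinery inside the cell were read next. Of 16 genes of the β-catenin destruction complex and its Dishevelled regulators, 2 were higher and 1 lower in double-positive than in PDGFRa-only cells, against 14.9% and 11.3% of all genes. Between the Sca-1(-) fractions 0 were higher and 1 lower (all genes 4.82% and 5.63%), and between double-positive and double-negative cells 1 was higher and 0 lower (all genes 14.5% and 12.2%). Those past 2-fold were Dact1, a Dishevelled-binding protein that gave 2116, 842.5 and 3490.3, the scaffold Amer1 and the kinase gene Gsk3b (1780.1, 3508 and 1676). Of 12 nuclear cofactors, 3 were higher and 1 lower in double-positive than in PDGFRa-only cells, against 14.9% and 11.3% of all genes. Those higher were Tle2, Tle4 and Tle5. Of 10 planar cell polarity genes, which carry β-catenin-independent signals, 2 were higher and 1 lower in that comparison, where 14.9% and 11.3% of all genes were. Prickle2 gave 325, 236.5 and 1179 and Vangl2 gave 198, 337 and 107.

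Genes listed as general targets, most of which answer other pathways too, went both ways: of 11, 2 were higher and 4 lower in double-positive than in PDGFRa-only cells, against 14.9% and 11.3% of all genes. Ccn4 gave 2474, 3527 and 297 and Ccn5 gave 321, 346.5 and 2389. These CCN matrix proteins are close relatives, and they ran in opposite directions, 11.9-fold lower and 6.89-fold higher in double-positive cells. Fosl1, an AP-1 transcription factor, gave 5735.5, 4616 and 1009, lowest in double-positive cells. Bambi, a TGFβ pseudoreceptor, gave 1014, 3242 and 954, highest in PDGFRa-only cells.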

How the data were processed

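The authors deposited probe set signals as linear intensity values for 3 arrays, made with MAS5 per the submitters' processing notes. No version or filter is given in the sources used here. The values had a common 2% trimmed mean of 500. After 64 control probe sets of 45101 were set aside, the arrays were scaled to a common 2% trimmed mean, and log2 ratios used the floor of 93.2 in place of any lower signal. Symbols came from the platform annotation; all 116 member probe sets carried the symbol that RefSeq (GRCm38.p6) gives for their gene number. Each gene was read from its brightest probe set, by mean log2 signal. With 1 array per fraction no test was possible, and the number of arrays limits the precision. Members at least 2-fold different in any comparison are given with the signal on every array, and of the others mainly the 2 brightest of each role. The other pathway lists name up to 4 genes each, by largest ratio. The members and lists were chosen with earlier results of these data known. The counting was tested on simulated data. Alternatives changed the floor, scaling and choice of probe set. Python 3.11.15, pandas 2.3.3 and numpy 2.4.6 were used.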

Additional observations from a re-analysis of the deposited data

How the results depend on the processing

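Of 312 member calls over 8 alternative settings, 281 were kept in the same direction, 31 were lost and 42 others gained. Quantile normalization, and leaving out probe sets with the suffix _x_at or _s_at (chosen after seeing the data), gained and lost none. The count lower in PDGFRa-only than in double-negative cells was 4, and was 7 with the floor at the 33rd percentiles and 2 with it at the 67th. The count lower in double-positive than in double-negative cells, 8, was 5 with the floor at the 67th percentiles. The other member counts stayed within 1.5 times. Over all genes, the counts higher and lower in PDGFRa-only than in double-negative cells, 563 and 657, were 365 and 388 with the floor at the 67th percentiles and 369 and 408 with the mean over probe sets. Reading each gene from its dimmest probe set above the floor turned the sign for double-positive over PDGFRa-only cells of Rspo2 (log2 ratio −0.71), Nkd1 (−0.26) and Wnt5a (−0.04), and for double-positive over double-negative cells of Rspo2 (−0.03). Among ratios under 2-fold it also turned Tcf7l2 (0.70 to −0.68) and Ryk (−0.40 to 0.22) for double-positive over double-negative cells. For double-positive over PDGFRa-only cells it turned Tcf7l1 (−0.23 to 0.26), Kremen1 (0.10 to −0.52) and Ryk (−0.58 to 0.03). For PDGFRa-only over double-negative cells it turned Nkd1 (−0.94 to 0.26), Nkd2 (0.29 to −0.05), Wls (0.18 to −0.35) and Lrp6 (0.08 to −0.33). Scaling to a common median moved the median log2 ratio of all genes from 0.07 to 0.19 for double-positive over PDGFRa-only cells and added Axin2, Nkd2, Fzd6 and Fzd8 to the members past 2-fold, which otherwise had ratios of at least 1.84. It moved that median from 0.03 to 0.13 for double-positive over double-negative cells and added Lrp6 and Wls. No paired analysis was possible because each fraction had 1 array. Signals near the floor limit what can be said of the dim ligands and R-spondins.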
